A study of Mus musculus with 3 samples.

Results

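Untreated PDL2-positive dendritic cells (DCs) were set against PDL2-negative DCs stimulated with lipopolysaccharide (LPS), on 2 of the series' 3 arrays. Both populations were grown from wild-type mouse bone marrow in granulocyte-macrophage colony-stimulating factor (GM-CSF) for 5 days and sorted by flow cytometry on surface PDL2, a ligand of the inhibitory receptor PD-1. The PDL2-positive cells received nothing further, and the PDL2-negative cells received LPS, a bacterial cell wall component, at 100 ng/ml for a time the sources used here do not give. The other array holds PDL2-negative untreated cells and serves here as the shared starting point. PDL2 status and LPS differ together between the compared arrays, so their shares in any difference cannot be told apart.

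Each population was measured on 1 array of total RNA. No difference below therefore has a replicate check, and the values are sizes with no test. Each gene was read from its brightest probe set after quantile normalization, as a log2 signal in which 1 unit is a 2-fold step. Signals under 5.58, the median of all normalized values, were raised to that floor, so a fold against an array at the floor is a lower bound, written as "at least". Of 17886 genes named on the array, 11042 exceeded the floor on 1 or both of the compared arrays, and 9954 exceeded it on both. Where a gene had several probe sets, the differences of the brightest pair disagreed with a robust SD of 0.44 on the log2 scale, over 4142 genes. That spread covers probe error within an array and not the spread between cultures. In bulk RNA, fewer cells of a type and less RNA per cell cannot be told apart.

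DCs sample their surroundings through receptors for microbes and debris, and on maturing they shut down uptake, express T cell ligands and the chemokine receptor Ccr7, and move to lymph nodes. Microbial products such as LPS start this through Toll-like receptors, which also switch on inflammatory cytokines, chemokines and a type I interferon loop. DCs can also mature without a microbial signal, and GM-CSF cultures of bone marrow hold some cells that do so, beside immature DCs and macrophage-like cells.

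The sort gene followed the labels. Pdcd1lg2, which encodes PDL2, read 8.40 on the PDL2-negative untreated array, 9.44 on the LPS array and 11.73 on the PDL2-positive array. It was 4.89-fold higher in PDL2-positive than in LPS-stimulated cells. Antigen presentation transcripts were near the top of the scale on all 3 arrays, Cd74 at 14.33 on each and H2-Ab1 at 14.29, 14.18 and 13.84 in the same order. Of 15 conventional DC markers above the floor, 7 were at least 2-fold higher in PDL2-positive than in LPS-stimulated cells and 3 were lower. Against untreated PDL2-negative cells, 6 of 15 were higher and 5 lower, with a median of 0.0036 on the log2 scale. The lineage gene Xcr1 was at the floor on every array. Itgax, the gene of the integrin CD11c, read 11.48, 10.80 and 9.81. The PDL2-positive array held Pdcd1lg2 and some DC transcripts at high signal, with less Itgax than either PDL2-negative array. Cd74 and H2-Ab1 lay within 2-fold on all 3 arrays, so they do not set the PDL2-positive cells apart.

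Across all compared genes, 1727 (15.6%) were at least 2-fold higher and 1391 (12.6%) at least 2-fold lower in PDL2-positive untreated cells than in LPS-stimulated PDL2-negative cells. The median difference was -0.05 on the log2 scale, and 7924 genes lay within 2-fold. The larger differences were mostly toward LPS: 316 genes were at least 10-fold lower and 143 at least 10-fold higher, and 164 against 44 passed 20-fold. The LPS array was at the floor for 207 of the higher genes, and the PDL2-positive array was at the floor for 231 of the lower genes. Of the called genes with another probe set above the floor, 1232 in all, 91.6% had a difference of the same direction on that probe set and 66.5% also passed 2-fold.

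**Figure D1:**
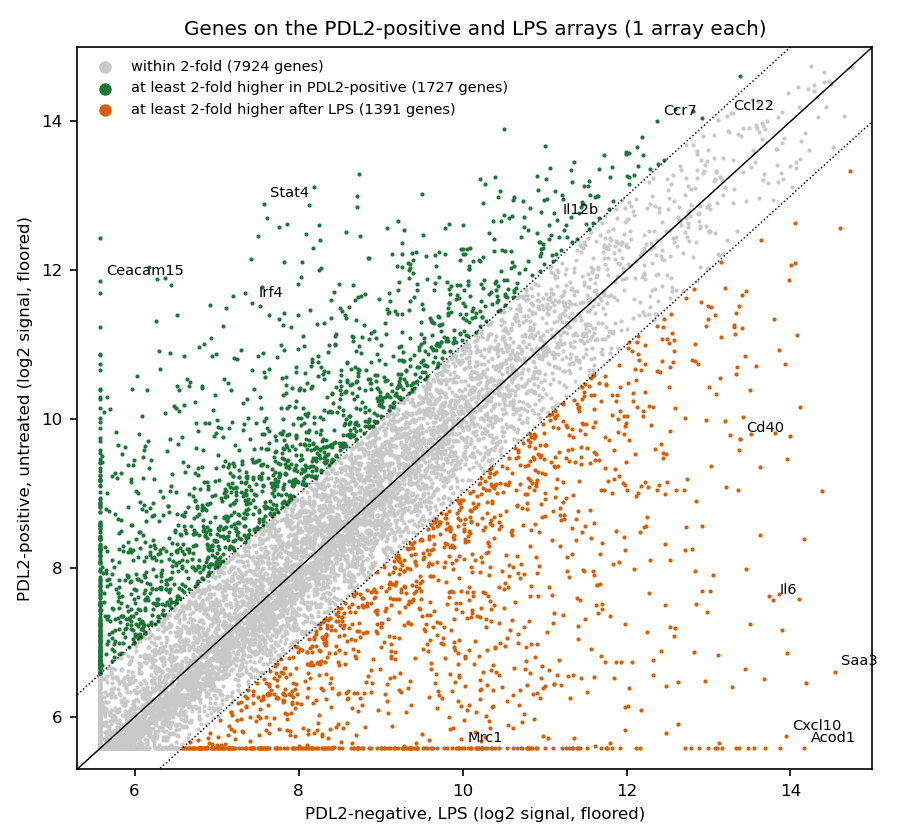
Log2 signal of each compared gene on the PDL2-negative LPS array (x axis) and the PDL2-positive untreated array (y axis), floored at 5.58, with 1 point per gene, a solid line of equality and dotted lines at 2-fold. Green points are the 1727 genes at least 2-fold higher in PDL2-positive cells, orange points the 1391 at least 2-fold higher after LPS, and the orange cloud reaches farther from the line, with Acod1 and Cxcl10 in its lower right corner.

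The untreated PDL2-negative array divides each difference into parts. Genes higher in PDL2-positive than in LPS-stimulated cells had a median of 0.88 on the log2 scale for PDL2-positive minus PDL2-negative untreated, and -0.79 for LPS minus untreated. Genes lower in PDL2-positive cells had medians of -1.11 and 0.94 on the same axes. Both axes subtract the same untreated array, so they are not independent of each other. The genes were also chosen by the sum of these parts, so opposite signs around the untreated array follow in part from that choice.

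Where both arrays exceeded the floor, the largest excess in PDL2-positive cells was that of N4bp2l1, which read 9.07 untreated, 6.17 with LPS and 12.04 in PDL2-positive cells, a 58.5-fold difference. Cdkal1, a transfer RNA modifying enzyme, read 7.18, 6.27 and 11.89, a 49.1-fold difference. Stat4, the transcription factor that carries interleukin-12 and type I interferon signals, read 6.41, 7.57 and 12.90, a 40.0-fold difference. N4bp2l1 was thus lower with LPS than untreated, whereas Stat4 was low on both PDL2-negative arrays and high on the PDL2-positive array alone.

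Clu, the secreted chaperone clusterin, read 7.79, 8.19 and 13.12, a 30.4-fold difference, and its 4 probe sets differed by between 4.48 and 6.01 on the log2 scale. Cxcr4, the receptor for the chemokine CXCL12, read 10.80, 7.86 and 12.63, a 27.1-fold difference. Bcl2l14, a member of the BCL2 family, read 6.43, 6.91 and 11.53, a 24.5-fold difference. Clu and Bcl2l14 each differed by less than 2-fold between the PDL2-negative arrays, while Cxcr4 was high untreated and low with LPS. Ramp3, a partner protein of the calcitonin receptor family, was 30.9-fold higher, and Pde3b, a phosphodiesterase that breaks down cyclic AMP, 24.5-fold higher. The other 12 of the 20 largest lay between 22.2-fold for Nostrin and 46.2-fold for Castor2. For some, another probe set gave a smaller difference on the log2 scale. It was 2.60 for N4bp2l1, still past 2-fold, but 0.56 for Castor2, 0.52 for Arap2, 0.60 for Strbp and -0.71 for Bbip1.

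All 20 were also at least 2-fold above PDL2-negative untreated cells, a comparison in which 10.1% of 10926 compared genes were higher and 13% lower. With LPS, 11 of the 20 were at least 2-fold lower than untreated, 6 lay within 2-fold and 3 were higher, against 13.8% lower and 9.17% higher of 11000 genes compared. The members' shares follow in part from their choice by the difference between these arrays.

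Where the LPS array was at the floor, the largest lower bound was for 2610528A11Rik, which read 7.04, 5.58 and 12.43, a difference of at least 116-fold. Ceacam15, a carcinoembryonic antigen-related gene, read 5.58, 5.58 and 11.86, at least 77.8-fold higher. Gpr65, an acid-sensing G protein-coupled receptor, read 8.65, 5.58 and 11.24, at least 50.5-fold higher. Ceacam15, and likewise Ndnf at 11.70, Slc22a23 at 10.88 and Reep1 at 10.40, read the floor on both PDL2-negative arrays. Il18r1, a chain of the interleukin-18 receptor, read 7.04, 5.58 and 10.86. The sialyltransferase gene St6gal1 read 10.18, 5.58 and 10.74, and the translation repressor gene Pdcd4 read 8.99, 5.58 and 10.40. St6gal1 was therefore as high in untreated PDL2-negative cells as in PDL2-positive cells, within 2-fold, and low with LPS alone.

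The largest deficits in PDL2-positive cells were in genes of the LPS response. Acod1, the enzyme that makes itaconate, read 9.0 untreated, 14.17 with LPS and 5.58, the floor, in PDL2-positive cells, a difference of at least 385-fold. Ptgs2, the inducible cyclooxygenase, read 7.34, 13.87 and 5.58, at least 313-fold lower. Cxcl10, a chemokine for activated T cells, read 7.49, 13.95 and 5.74, a difference of -8.20 on the log2 scale, with a PDL2-positive signal close to the floor. Each of these lay lowest in PDL2-positive cells, highest with LPS and between them in untreated PDL2-negative cells.

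Saa3, an acute phase protein, read 10.60, 14.54 and 6.61, 244-fold lower in PDL2-positive cells. Clec4e, the lectin Mincle, read 10.91, 14.19 and 6.46, 213-fold lower. Cxcl2, a neutrophil chemokine, read 11.28, 13.68 and 6.50, 144-fold lower. All 3 were already well above the floor without LPS, and lowest in PDL2-positive cells. Others of the 20 largest above the floor were Ccl3 at 137-fold, the formyl peptide receptor gene Fpr2 at 112-fold, the Fc receptor gene Fcgr1 at 106-fold and the podoplanin gene Pdpn at 70.6-fold. Fcgr1 and Pdpn read 5.90 and 5.65 in PDL2-positive cells, close to the floor, so the size of their folds rests on near-background signals. Of the 20, 19 were at least 2-fold higher with LPS than untreated, against 9.17% of all genes compared, and the exception was Ms4a6d at 0.84 on the log2 scale. In PDL2-positive against PDL2-negative untreated cells, 17 of them were lower, against 13% of all genes, and Il6 was at least 3.98-fold higher. These counts too follow in part from how the 20 were chosen. U90926 and Slfn4 differed there by less than 2-fold. Slfn4 read 5.58, 12.49 and 5.78, so it stood out on the LPS array alone. Cav1, the gene of caveolin, and Slc7a2, an arginine transporter, had lower bounds of 253-fold and 193-fold.

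**Figure D2:**
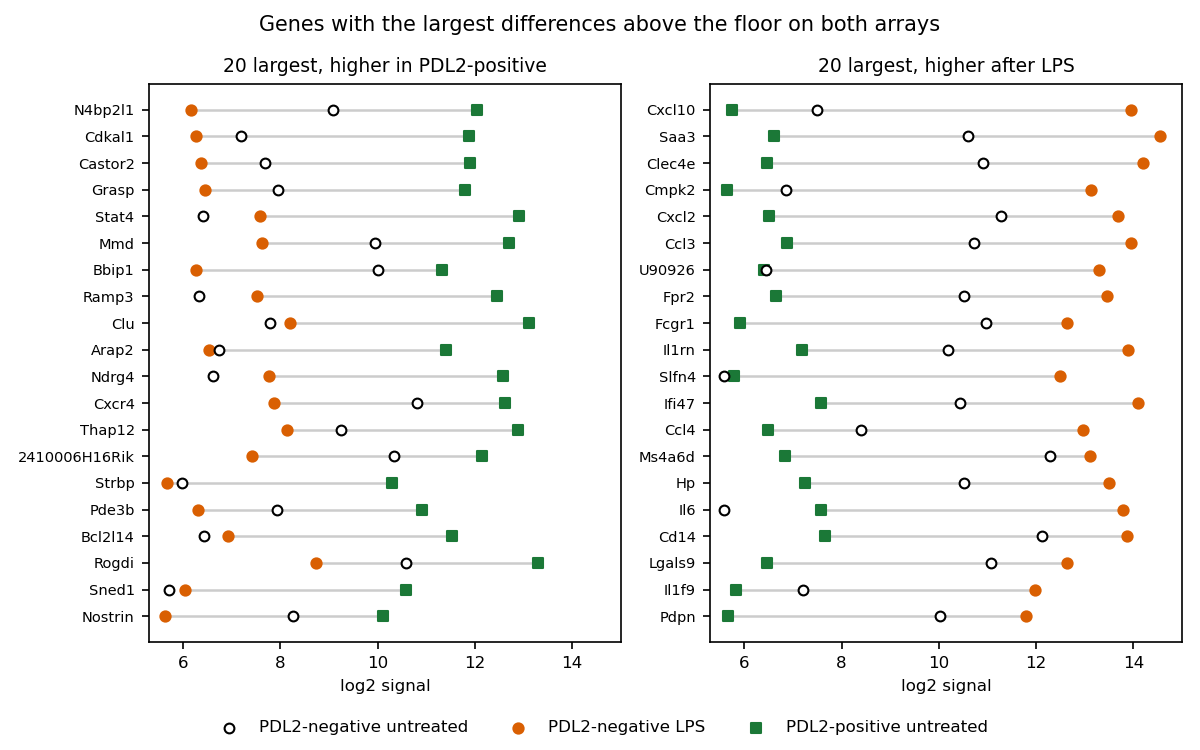
Log2 signal on the 3 arrays for the 20 genes with the largest difference in each direction among genes above the floor on both compared arrays (left, higher in PDL2-positive cells; right, higher after LPS). Open circles are PDL2-negative untreated, orange circles PDL2-negative LPS and green squares PDL2-positive untreated cells; most open circles on the right lie between the other symbols, while Slfn4 and U90926 have untreated and PDL2-positive signals side by side.

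Promoters of 4 of these genes are shown because they stand for the program in which each gene was found, interferon response for Cxcl10 and Ifit1, NF-kB response for Cxcl2, and the PDL2-positive side for Stat4. Each line is the 250 bases before a RefSeq transcript start, 5' to 3' on the gene's strand, in build GRCm38.p6. They lie at chr5:92348890-92349139 on the minus strand for Cxcl10, at chr19:34640639-34640888 on the plus strand for Ifit1, at chr5:90903649-90903898 on the plus strand for Cxcl2 and at chr1:52007990-52008239 on the plus strand for Stat4. Capitals mark matches to the core of the interferon-stimulated response element (ISRE), spelled GAAA, any 2 bases, GAAA, or to an NF-kB motif, spelled GGGA, any base, TTTCC, each searched on both strands.
Cxcl10: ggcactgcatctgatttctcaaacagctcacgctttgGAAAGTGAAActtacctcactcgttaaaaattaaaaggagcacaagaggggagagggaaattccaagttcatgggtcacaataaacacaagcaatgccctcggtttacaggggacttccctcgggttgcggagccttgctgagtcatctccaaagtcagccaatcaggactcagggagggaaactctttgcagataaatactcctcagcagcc
Ifit1: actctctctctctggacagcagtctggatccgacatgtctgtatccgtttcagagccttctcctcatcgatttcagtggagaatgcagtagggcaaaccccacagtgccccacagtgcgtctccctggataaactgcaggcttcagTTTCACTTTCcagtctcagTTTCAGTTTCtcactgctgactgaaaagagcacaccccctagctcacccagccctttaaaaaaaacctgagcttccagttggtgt
Cxcl2: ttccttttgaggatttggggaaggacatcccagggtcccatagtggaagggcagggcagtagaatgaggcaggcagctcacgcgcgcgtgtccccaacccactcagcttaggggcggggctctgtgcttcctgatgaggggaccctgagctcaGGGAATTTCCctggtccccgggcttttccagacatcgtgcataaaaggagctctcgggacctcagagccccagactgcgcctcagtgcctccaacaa
Stat4: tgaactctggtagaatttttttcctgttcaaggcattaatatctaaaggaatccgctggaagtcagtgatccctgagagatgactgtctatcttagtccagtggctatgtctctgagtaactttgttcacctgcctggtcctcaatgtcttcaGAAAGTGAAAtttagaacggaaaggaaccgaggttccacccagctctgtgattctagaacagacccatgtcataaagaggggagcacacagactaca

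Cxcl10 held GAAAGTGAAA from 213 to 204 bases before its start. Ifit1 held 2 matches on the other strand, TTTCACTTTC from 104 to 95 and TTTCAGTTTC from 85 to 76 bases before its start. Cxcl2 held GGGAATTTCC from 97 to 88 bases before its start. Stat4 held GAAAGTGAAA from 97 to 88 bases before this start, and its other listed start held no match to either motif. The same 10 letters thus stood in Cxcl10, called lower, and in Stat4, called higher in PDL2-positive cells.

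The ISRE core occurred in 2.98% of 32851 mouse promoter windows of this length, and in at least 1 window of 3.23% of the 8985 compared genes that had a window. It was found for 8 of 22 interferon-stimulated genes with a window, and for 6 of 7 interferon-inducible GTPases. Among genes called lower in PDL2-positive cells 5.93% of 1113 held it, and among genes called higher 2.68% of 1419. The NF-kB motif occurred in 0.356% of windows and for 0.556% of the 8985 compared genes with a window. It was found for 10 of the 1113 lower genes (0.898%) and 3 of the 1419 higher genes (0.211%). Its chemokine matches were Cxcl1, Cxcl2 and Cxcl3, of 11 chemokines with a window, and its cytokine matches were Il6 and Csf1, of 16. A match describes letters in this window and shows no binding, and a window without one says only that those letters are not there.

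The 38 gene lists that follow were chosen with earlier results of these data known. Each was described by counts and medians beside those of all compared genes. Of all compared genes, 15.6% were higher and 12.6% lower, with a median of -0.05.

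Most genes of the DC maturation list were higher in PDL2-positive than in LPS-stimulated cells. The list was chosen with earlier results of these data known, so its counts and median may follow in part from its membership. It holds Stat4 and Net1, higher by 5.32 and 4.06 on the log2 scale. Its members Cd40, Cd86 and Cd274 went the other way, at -3.64, -1.49 and -1.15, and Cd80 lay within 2-fold at 0.52. Of 41 above the floor, 24 were at least 2-fold higher, 5 lower and 12 within 2-fold, with a median of 1.63 on the log2 scale. Both populations were above the untreated PDL2-negative array for most of them: 38 of 40 were higher in PDL2-positive cells, with a median of 3.38, and 29 of 38 were higher with LPS, with a median of 1.97. Ccr7, which senses lymph node chemokines, read 7.74 untreated, 12.37 with LPS and 14.01 in PDL2-positive cells, 3.10-fold higher than with LPS. Fscn1, the actin-bundling protein fascin of mature DCs, read 8.96, 12.81 and 14.14, 2.52-fold higher. Cd83, which stabilizes surface MHC class II, read 9.24, 11.06 and 13.38, 4.96-fold higher. These 3 shared an order of arrays, lowest untreated and highest in PDL2-positive cells.

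In the same list, Net1 read 6.72, 8.05 and 12.11, 16.7-fold higher in PDL2-positive cells. Adcy6, an adenylate cyclase, read 6.12, 7.99 and 11.40, 10.6-fold higher. Eno2, the neuronal enolase, and Slco5a1, a transporter family gene, were at the floor on both PDL2-negative arrays and at least 9.62-fold and 12.6-fold higher. Anxa3, Laptm4b and Iscu read 13.15, 11.80 and 12.94 in PDL2-positive cells and 10.27, 8.66 and 10.62 with LPS, each within 2-fold of its untreated signal on the LPS array. Net1, Adcy6 and Eno2 therefore differed by more than Ccr7, Fscn1 and Cd83, while another probe set of Slco5a1 differed by 1.43.

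The 5 maturation genes that were lower in PDL2-positive cells were Cd40, Cd200, Cd86, Bcl2l1 and Cd274. Cd40, the receptor for T cell help, read 7.26 untreated, 13.39 with LPS and 9.74 in PDL2-positive cells, 12.5-fold lower than with LPS. Cd274, the other PD-1 ligand, PDL1, read 9.92, 12.07 and 10.92, 2.22-fold lower. Cd86, a ligand of CD28, read 10.48, 11.92 and 10.43, but another of its probe sets differed by -0.06. The pair of PD-1 ligand genes thus differed in opposite directions, Pdcd1lg2 toward PDL2-positive cells and Cd274 toward LPS. Cd80, the other CD28 ligand, differed by 0.52, with probe sets from -0.16 to 1.06.

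T cell ligands as a list were lower in PDL2-positive cells for 11 of 21, higher for 1 and within 2-fold for 9, with a median of -1.15. The gene that was higher was Tnfsf4, the OX40 ligand, which read 5.95 untreated, 7.79 with LPS and 11.00 in PDL2-positive cells, 9.29-fold higher. Tnfsf9, the 4-1BB ligand, read 7.68, 10.72 and 5.58, at least 35.2-fold lower. These TNF family ligands ran opposite to each other. The Notch ligand Jag1 read 6.13, 9.89 and 7.01, 7.40-fold lower on its brightest probe set and -0.79 on another. The Notch ligand Dll4 read 5.93, 8.0 and 5.58, at least 5.35-fold lower. Lgals9, the lectin galectin-9, read 11.08, 12.63 and 6.47, 71.5-fold lower. Against untreated PDL2-negative cells the list's median was 0.04 in PDL2-positive cells, with 8 of 21 higher, and 1.55 with LPS, with 14 of 21 higher.

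TNF receptors split evenly, 5 of 16 higher and 5 lower with a median of -0.58. Tnfrsf9, or 4-1BB, read 6.20, 9.67 and 12.21, 5.82-fold higher in PDL2-positive cells. Tnfrsf4, or OX40, read 7.14, 7.37 and 10.27, 7.43-fold higher, and Tnfrsf18, or GITR, read 7.51, 6.65 and 9.38, 6.60-fold higher. All 3 are costimulatory receptors best known on T cells, and here they lay on the PDL2-positive side. Tnfrsf1a, the main TNF receptor, read 10.65, 11.19 and 8.71, 5.56-fold lower. Tnfrsf11a, the receptor RANK, and the death receptor gene Fas were the other higher genes, by 1.78 and 1.01 on the log2 scale.

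Transcription factors of DCs and macrophages differed in both directions, with 12 of 41 higher, 15 lower and a median of -0.06. Irf4, a factor of type 2 conventional DCs and of DC migration, read 8.18 untreated, 7.44 with LPS and 11.56 in PDL2-positive cells, 17.4-fold higher, and its probe sets differed by 2.03 to 4.12. Batf3, a factor of type 1 conventional DCs, read 7.68, 7.17 and 10.39, 9.31-fold higher. Irf8, which pairs with Batf3 in that lineage, read 10.95, 11.33 and 13.35, 4.06-fold higher. These 3 factors of both conventional DC lineages were thus higher on the same array, and none of the 3 was called changed by LPS. Zbtb46, a factor of conventional DCs, was 3.86-fold higher, with another probe set at 0.72, and Flt3, their growth factor receptor, 4.25-fold higher. Runx3 was 7.37-fold higher on its brightest probe set and 0.13 on another. Other factors of the list did not share this direction. Zeb2 and Spi1 were lower by 2.07 and 1.36 on the log2 scale, with another Zeb2 probe set at -0.35, and Klf4 differed by 0.19. Of the 15 conventional DC markers above the floor, 7 were higher and 3 lower, the latter with Cd209a at least 2.30-fold lower.

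The lower factors included several of macrophages and inflammation. Cebpb, a factor of myeloid inflammation, read 11.88, 12.80 and 8.26, 23.3-fold lower in PDL2-positive cells. Maf, a macrophage factor, read 10.94, 10.69 and 6.16, 23-fold lower, but another probe set differed by -0.20. Tfec, of the family that also holds Mitf, read 10.33, 11.05 and 6.63, 21.4-fold lower, and Mitf was 14.4-fold lower. Cebpb, Maf and Tfec each lay within 2-fold between the PDL2-negative arrays, with and without LPS. Batf read 8.80, 11.64 and 7.78 and Batf2 read 7.01, 10.99 and 6.39, so both were highest on the LPS array.

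Genes of the NF-kB system differed in both directions. Of 21, 3 were higher in PDL2-positive cells, 10 lower and 8 within 2-fold, with a median of -0.61. The higher share, 14.3%, was close to the 15.6% of all compared genes, and the lower share was 47.6% against 12.6%. The 3 higher genes belong to the non-canonical pathway or its control, but they do not stand for the whole list. Traf2 was 2.60-fold lower, and Birc3 differed by 0.05, with another probe set at -0.71. Map3k14, the kinase NIK that starts it, read 6.97 untreated, 8.53 with LPS and 11.46 in PDL2-positive cells, 7.62-fold higher. Relb, its transcription factor subunit, read 7.79, 10.22 and 12.13, 3.77-fold higher, and Birc2, which keeps NIK low, was 3.92-fold higher. The canonical subunits Rela and Rel lay within 2-fold at -0.03 and 0.96. Nfkb2, the partner of Relb, differed by -0.17 on its brightest probe set and by 1.11 on another.

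The lower genes included some inducible brakes of the canonical pathway but not all. Among its inhibitor genes, Nfkbia, Nfkbie and Nfkbib lay within 2-fold, at -0.60, -0.61 and -0.05 on the log2 scale. Another probe set of Nfkbia differed by -1.32, and Nfkbid was lower, at -1.28. Tnfaip3, the A20 brake, read 9.59, 13.86 and 10.93, 7.60-fold lower in PDL2-positive cells. Nfkbiz, a co-activator of Il6 and related genes, was 36.4-fold lower on its brightest probe set, with others as small as -0.82. Zc3h12a, an RNase that degrades cytokine messages, was 15.2-fold lower. Against untreated PDL2-negative cells, PDL2-positive cells had 12 of 21 higher and 1 lower (median 1.34), and LPS-stimulated cells had 19 higher (median 2.42). Both populations thus lay above the untreated level over this list.

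Interferon-stimulated antiviral genes were lower in PDL2-positive cells nearly throughout. Of 30 above the floor, 27 were at least 2-fold lower, none higher and 3 within 2-fold, with a median of -4.64. With LPS, 30 of 30 were higher than untreated, with a median of 3.75. In PDL2-positive cells 17 were lower than untreated PDL2-negative cells and 4 higher, with a median of -1.22. Ifit1, which binds foreign RNA, read 7.83 untreated, 13.69 with LPS and 5.58 in PDL2-positive cells, at least 276-fold lower, and Ifit2 and Ifit3 were at least 221-fold and 239-fold lower. Cmpk2, a nucleotide kinase, read 6.85, 13.13 and 5.65, the last close to the floor. On the PDL2-positive array 10 of the 31 genes measured were at the floor, against 1 on each PDL2-negative array.

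The exceptions were Mx1, Bst2 and Irf9. Mx1, an antiviral GTPase, read 6.96 untreated, 13.02 with LPS and 12.83 in PDL2-positive cells, a difference of -0.19. Its relative Mx2 read 5.86, 9.96 and 6.54, 10.7-fold lower in PDL2-positive cells. Bst2, or tetherin, differed by -0.65 and Irf9, a subunit of the interferon response complex, by -0.93. Mx1 was therefore high on both compared arrays, while Mx2 followed the rest of the list. Each of these genes rested on 1 probe set above the floor.

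Interferon-inducible GTPases, which attack the vacuoles of microbes, were lower for 9 of 9, with a median of -5.27. Ifi47 read 10.44, 14.10 and 7.58, 91.4-fold lower, and the smallest difference was that of Gbp2, which read 10.40, 13.34 and 10.71. With LPS 9 of 9 were higher than untreated, and in PDL2-positive cells 5 of 8 were lower and none higher. Genes of MHC class I presentation, many of them interferon-inducible too, were closer: 3 of 16 were lower, none was higher, and the median was -0.29. The 3 were Nlrc5, their trans-activator, at 3.06-fold, the peptide transporter gene Tap2 and the immunoproteasome gene Psmb10. H2-K1, H2-D1 and B2m read between 13.63 and 14.44 on the 3 arrays, near the top of the scale. Tap1 was at the floor on all 3 arrays on its brightest probe set and was not counted.

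Inflammatory cytokines were lower in PDL2-positive cells for 14 of 18, higher for 3 and within 2-fold for 1, with a median of -3.09. On the next brightest probe set, which only 4 of them have above the floor, the median was -0.33. Il6 read 5.58 untreated, 13.79 with LPS and 7.57 in PDL2-positive cells, 74.5-fold lower. Tnf read 8.11, 12.48 and 6.41, 67.0-fold lower, and Il1b read 10.08, 14.16 and 8.38, 54.8-fold lower. The anti-inflammatory Il10 read 5.58, 11.27 and 5.58, at least 51.5-fold lower. Il1rn, which blocks the interleukin-1 receptor, was 106-fold lower. Cytokines and their antagonists thus lay together on the LPS side. Of these 5 genes, Il6 was the single one at least 2-fold higher in PDL2-positive than in untreated PDL2-negative cells.

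The interleukin-12 family did not share a direction. Il12b, the chain shared by interleukin-12 and interleukin-23, read 5.58 untreated, 11.15 with LPS and 12.68 in PDL2-positive cells, 2.89-fold higher than with LPS. Il12a, the other chain of interleukin-12, read 5.58, 9.43 and 5.58, at least 14.4-fold lower. Ebi3, the shared chain of interleukins 27 and 35, read 10.54, 12.26 and 9.09, 9.01-fold lower, and Il23a was at the floor on all 3 arrays. PDL2-positive cells therefore had Il12b transcript without Il12a or Il23a above the floor. Lif and Osm were the other higher genes, by 1.71 and 1.12 on the log2 scale, and Csf2 was the gene within 2-fold, at -0.20 with PDL2-positive cells at the floor.

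Inflammatory chemokines were lower for 14 of 18, within 2-fold for 4 and higher for none, with a median of -3.17. Besides Cxcl10 and Cxcl2, given above with their promoters, Cxcl3 was at least 185-fold lower, Ccl4 89.1-fold lower and Ccl2 lower by 3.83 on the log2 scale. The exceptions above the floor on both arrays were Ccl5 and Cxcl16. Ccl5, which attracts T cells, read 8.86 untreated, 14.44 with LPS and 14.20 in PDL2-positive cells, a difference of -0.24. Cxcl16, a membrane-bound chemokine, read 11.69, 12.73 and 13.24. Ccl5 was thus among the brightest genes of both populations.

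Chemokines of mature DCs lay on both arrays as well. Ccl22, which attracts regulatory T cells through Ccr4, read 7.83 untreated, 13.22 with LPS and 14.07 in PDL2-positive cells, a difference of 0.85. Ccl17, a ligand of the same receptor, read 7.27, 11.80 and 12.43, a difference of 0.63. Cx3cl1, or fractalkine, read 5.85, 7.91 and 10.42, 5.67-fold higher, and it was the single called gene among the 5 of this list above the floor. The median of the 5 was 0.63. Ccl17 and Ccl22 thus lay within 2-fold on the compared arrays, and both arrays lay well above the untreated one.

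Chemokine receptors and migration genes were higher for 8 of 21 and lower for 8, with a median of -0.15. Besides Cxcr4 and Ccr7, the higher genes included Plxnc1, a semaphorin receptor, at 6.28-fold, and Selplg, a ligand of selectins, at 5.11-fold. The lower genes included the inflammatory attractant receptors: Fpr2 at 112-fold, the complement receptor gene C5ar1, which read 9.05, 9.78 and 5.58, and Ccr1, which read 12.21, 10.40 and 6.94. Itgal, a chain of the integrin LFA-1, read 10.31, 11.42 and 5.58, at least 57.2-fold lower. Cxcr4 and Ccr7 thus lay on the PDL2-positive side, and Fpr2, C5ar1 and Ccr1 on the LPS side.

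**Figure D3:**
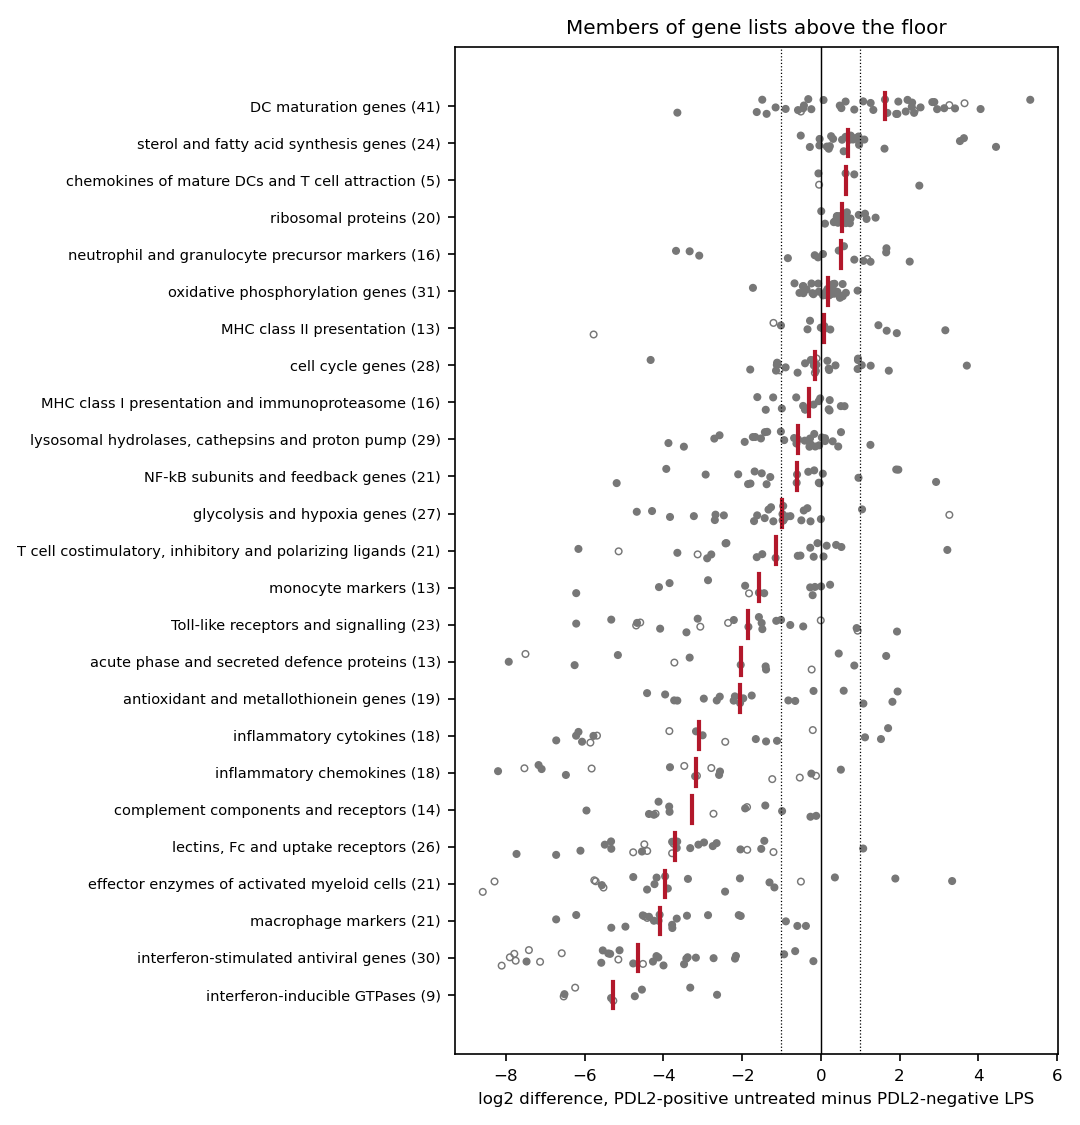
Log2 difference, PDL2-positive untreated minus PDL2-negative LPS, of each member above the floor for 25 of the gene lists, ordered by median. Each point is 1 gene (open where 1 of the arrays was at the floor, so that the difference is a bound), the red bar is the list's median, dotted lines mark 2-fold, and the number of members plotted follows each name; the medians run from 1.63 for DC maturation genes to -5.27 for interferon-inducible GTPases.

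Effector enzymes of activated myeloid cells were lower for 17 of 21, higher for 2 and within 2-fold for 2, with a median of -3.96. Nos2, which makes nitric oxide, read 5.58 untreated, 11.10 with LPS and 5.58 in PDL2-positive cells, at least 46.0-fold lower. Ido1, which degrades tryptophan, read 5.59, 11.02 and 7.14, 14.8-fold lower. Ptges, which makes prostaglandin E2 downstream of Ptgs2, read 5.58, 11.33 and 5.58, at least 54.0-fold lower. Both inducible steps of prostaglandin E2 synthesis were thus at the floor in PDL2-positive cells.

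The higher enzymes make leukotriene C4 and retinoic acid. Ltc4s, the leukotriene C4 synthase, read 9.29, 7.51 and 10.85, 10.1-fold higher in PDL2-positive cells, while Alox5ap, which feeds the same pathway, read 13.95, 12.59 and 10.15, 5.40-fold lower. Aldh1a2, a retinaldehyde dehydrogenase, read 5.58, 8.88 and 10.77, 3.72-fold higher. Of the leukotriene genes, the last step and the upstream activator therefore ran in opposite directions.

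Acute phase and secreted defence genes were lower for 9 of 13 and higher for 1, with a median of -2.04. Ptx3, a soluble pattern receptor, read 5.58, 13.08 and 5.58, at least 182-fold lower, and the haptoglobin gene Hp read 10.52, 13.50 and 7.25, 76.4-fold lower. The higher gene was S100a9, a subunit of calprotectin, at 12.76, 11.11 and 12.77. S100a9 was level between the untreated populations and lower with LPS.

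Toll-like receptors and their signalling genes were lower in PDL2-positive cells for 17 of 23 and higher for 1, with a median of -1.84, or -0.93 over the 7 genes with another probe set above the floor. Cd14, the co-receptor that hands LPS on, read 12.11 untreated, 13.86 with LPS and 7.65 in PDL2-positive cells, 74.3-fold lower. Tlr2, a receptor of bacterial lipoproteins, read 12.38, 13.02 and 7.70, 40.1-fold lower. Tlr4, the LPS receptor itself, read 10.16, 8.10 and 6.26, 3.58-fold lower, and Tlr3 was at least 24.1-fold lower. The order for Tlr4 was highest untreated, lower with LPS and lowest in PDL2-positive cells. The adaptor gene Myd88 was 8.74-fold lower, whereas Traf6, a ubiquitin ligase of the same pathway, was 3.83-fold higher, with another probe set at 0.78. Against untreated PDL2-negative cells, the median was -1.73 in PDL2-positive cells and 0.55 with LPS.

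Receptors for uptake were lower in PDL2-positive cells nearly throughout. Of 26 lectin, Fc and uptake receptors above the floor, 25 were lower and 1 was higher, with a median of -3.70. Mrc1, the mannose receptor, read 11.32 untreated, 9.99 with LPS and 5.58 in PDL2-positive cells, at least 21.3-fold lower. Fcgr2b, the inhibitory Fc receptor, read 13.08, 13.73 and 7.62, 69.0-fold lower, and Axl, a receptor for dying cells, read 12.01, 12.58 and 7.09, 44.9-fold lower. The higher gene was Ly75, the DC lectin DEC-205, which read 7.11, 9.15 and 10.22, 2.11-fold higher. Against untreated PDL2-negative cells, PDL2-positive cells had 26 of 28 lower (median -4.26) and LPS-stimulated cells 13 of 29 (median -0.48). The summed linear signal of the list was 109800 untreated, 109900 with LPS and 8569 in PDL2-positive cells, so the PDL2-negative arrays were alike in it and the PDL2-positive array was low.

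Complement genes were lower for 11 of 14 and higher for none, with a median of -3.29, or -1.91 over the 7 genes with another probe set above the floor. C1qc, a chain of the initiating C1q molecule, read 12.52, 11.41 and 7.04, 20.6-fold lower, and C1qa and C1qb were lower by 4.24 and 4.12 on the log2 scale. F10, the clotting factor X gene, read 11.41, 12.83 and 6.87, 62.0-fold lower. C1q and F10 were thus high on both PDL2-negative arrays.

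Macrophage markers moved with these results. Of 25 on the array, 21 were above the floor, 18 of them lower in PDL2-positive cells and none higher, with a median of -4.10. Their summed linear signal was 146100 untreated, 128600 with LPS and 23100 in PDL2-positive cells, and 5, 4 and 6 of the 25 were at the floor. The markers Cd163, Vsig4, Timd4 and Folr2 were at the floor on all 3 arrays. Adgre1, a classic macrophage surface antigen, read 12.01, 11.83 and 8.06, and Csf1r, the receptor of macrophage growth factor, read 14.08, 13.58 and 10.72. Monocyte markers were lower for 8 of 13 and higher for none, with a median of -1.57 and summed signals of 52060, 48770 and 21030. The part of macrophage-like and monocyte-like cells in the uptake, complement, Toll-like receptor and inflammatory differences was not tested. Several genes stand in more than 1 of these lists.

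MHC class II genes differed in both directions. Of 13, 4 were higher, 3 lower and 6 within 2-fold, with a median of 0.07, and the median was -0.03 when arrays were centred on their medians. H2-Eb2 read 6.25, 6.95 and 10.12, 8.96-fold higher in PDL2-positive cells. The peptide-loading genes H2-DMb2 and H2-Oa were 3.81-fold and 3.19-fold higher, and Ifi30, a thiol reductase that unfolds antigen, 2.76-fold higher. The clearest difference was in Marchf1, the ubiquitin ligase that removes MHC class II and CD86 from the surface, which read 10.03, 11.35 and 5.58, at least 54.7-fold lower. The abundant chains themselves, with H2-Aa at 0.07, H2-Eb1 at 0.09 and H2-Ab1 at -0.34, lay within 2-fold, but they read between 13.84 and 14.54, near the top of the array's scale. The other lower genes were H2-DMa at -1.01 and Cd209a, a lectin gene that had also been put in this list.

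Genes tied to interleukin-4 and type 2 immunity were higher for 2 of 18 and lower for 7, with a median of -0.38. The higher genes were Tnfsf4 and Stat6, the transcription factor of interleukin-4 signalling, which read 10.76, 9.89 and 11.03. The lectin genes Mrc1, Mgl2 and Clec10a were at the floor in PDL2-positive cells. Arg1 and Retnla, known from alternatively activated macrophages, were at the floor on all 3 arrays. PDL2-positive cells thus had Stat6 and Tnfsf4 without these lectins.

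Feedback genes of cytokine signalling were higher for 4 of 21 and lower for 7, with a median of 0.10. Socs3, which damps interleukin-6 signals, read 9.97 untreated, 13.46 with LPS and 7.99 in PDL2-positive cells, 44.5-fold lower, and Socs1, which damps interferon signals, was 10.6-fold lower. Socs2, which damps growth hormone and related signals, read 7.81, 10.07 and 12.02, 3.85-fold higher. The SOCS genes therefore did not share a direction.

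Immediate early and stress genes were higher for 9 of 28 and lower for 7, with a median of -0.16. The heat shock gene Hspa1b read 5.58, 10.98 and 5.74, 37.7-fold lower, and Hspa1a was at least 16.7-fold lower. Zfp36l1, which destabilizes messages, read 11.59, 9.50 and 13.03, 11.5-fold higher, and Rgs2, a brake on G protein signals, read 11.83, 7.59 and 10.56, 7.83-fold higher. Fos read 12.85, 7.78 and 9.82. The heat shock genes were high on the LPS array alone, while Rgs2 and Fos were highest untreated and lowest with LPS.

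Among BCL2 family genes, 4 of 13 were higher and 3 lower, with a median of -0.08. Besides Bcl2l14, the higher genes encode BH3-only proteins, which promote death. Pmaip1, or NOXA, read 9.16 untreated, 8.25 with LPS and 12.60 in PDL2-positive cells, 20.5-fold higher. Bbc3, or PUMA, was 4.43-fold higher, and Bmf 5.14-fold higher on its brightest probe set, with another at -0.13. The lower genes were Bid, with another probe set at -0.13, Bcl2l11, or BIM, at -1.67, and the survival gene Bcl2l1, and Mcl1 differed by 0.01. Pro-death genes thus stood on both sides.

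Sterol and fatty acid synthesis genes were higher for 5 of 24 and lower for none, with a median of 0.68. The higher share, 20.8%, was near the 15.6% of all compared genes, and 19 genes lay within 2-fold. The 3 largest were desaturases. Scd2 read 11.88 untreated, 6.44 with LPS and 10.89 in PDL2-positive cells, 21.9-fold higher, with probe sets from 1.80 to 4.45. Fads1 read 10.34, 6.17 and 9.70, 11.6-fold higher, and Scd1 read 8.95, 7.29 and 10.93, 12.4-fold higher. Mvd and Mvk, of the mevalonate pathway, were 3.07-fold and 2.16-fold higher. Scd2 and Fads1 lay within 2-fold between the untreated populations and were low with LPS. Of 25 genes in the list, 12 were lower with LPS than untreated, and 3 were lower in PDL2-positive cells. Genes of sterol efflux and lipid storage were lower for 11 of 17, 64.7% against 12.6% of all compared genes, and higher for 1. Their median was -1.13, and Apoe, the lipid carrier, read 13.11, 12.47 and 7.51, 31.2-fold lower.

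Glycolysis and hypoxia genes were lower in PDL2-positive cells for 13 of 27 and higher for 2, with a median of -0.97. The hexokinase genes Hk3 and Hk2, for the entry step, were 25.6-fold and 19.5-fold lower, and the glucose transporter gene Slc2a1 14.2-fold lower. Hk2 read 9.98, 10.97 and 6.69, so it was also lower than in untreated PDL2-negative cells. Pfkfb3, which speeds glycolysis through fructose bisphosphate, read 7.83, 12.23 and 11.88, a difference of -0.34. Pfkfb3 was thus high on both compared arrays and the hexokinases on the LPS array.

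Respiratory chain genes lay within 2-fold for 30 of 31, with a median of 0.18, and the exception was the cytochrome c gene Cycs at -1.72. Ribosomal protein genes were higher for 3 of 20 and lower for none, with a median of 0.53. Lysosomal genes were lower for 11 of 29 and higher for 1, with a median of -0.58. The lower ones included the cathepsin genes Ctsk, at 11.07, 10.30 and 6.43, and Ctsd, at 13.67, 13.01 and 10.43, and the higher one was Ctsh. Antioxidant and metallothionein genes were lower for 12 of 19 and higher for 3, with a median of -2.05. Hmox1, heme oxygenase, was 21.3-fold lower and the cystine transporter gene Slc7a11 12.5-fold lower, while the glutathione peroxidase genes Gpx4 and Gpx1 were 3.87-fold and 3.53-fold higher and catalase, Cat, 2.12-fold higher. Gpx1 read 13.34, 11.73 and 13.55, level between the untreated populations and lower with LPS.

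Cell cycle genes differed in both directions. Of 28 above the floor, 4 were higher, 7 lower and 17 within 2-fold, with a median of -0.14 that turned to 0.33 with a floor at the 75th percentile and to 0.32 on the next brightest probe set. Both populations lay below untreated PDL2-negative cells, with 24 of 36 lower in each and medians of -1.48 in PDL2-positive cells and -1.49 with LPS. Mki67, the proliferation antigen, read 10.65 untreated, 10.54 with LPS and 6.21 in PDL2-positive cells, a difference of -4.32. Mcm7, a subunit of the replication helicase, read 9.73, 6.37 and 10.08, 13.1-fold higher on its brightest probe set, and its others differed by as little as 0.92. Rrm2, which makes deoxynucleotides, read 8.58, 5.58 and 5.58. Mki67 and Mcm7 were exceptions in opposite directions, and Rrm2 was at the floor on both compared arrays.

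**Figure D4:**
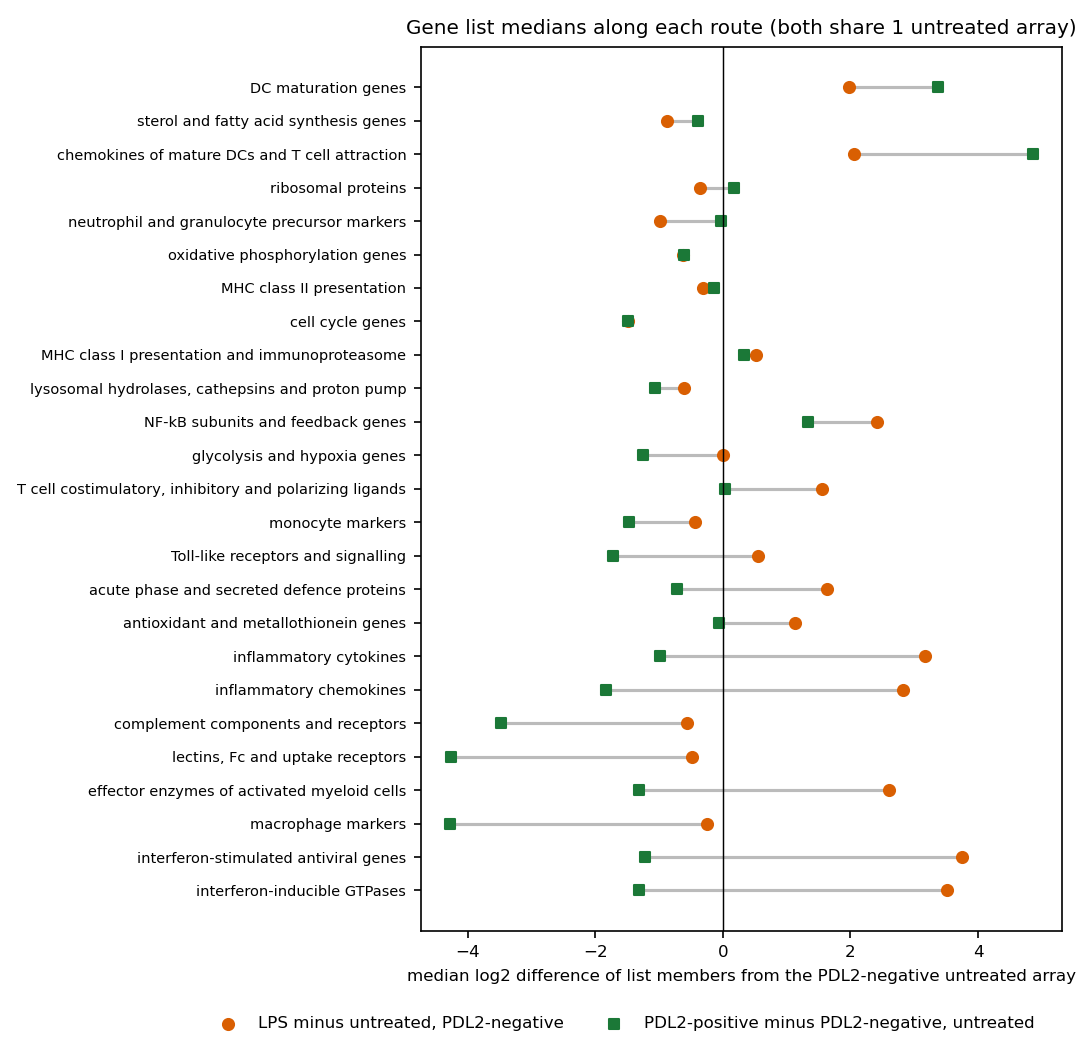
Median log2 difference from the PDL2-negative untreated array for 25 gene lists, LPS minus untreated (orange circles) and PDL2-positive minus PDL2-negative untreated (green squares), with a grey line joining each list's pair. The circles lie right of the squares for interferon genes (3.75 against -1.22) and inflammatory cytokines (3.17 against -0.98), the squares lie right for DC maturation genes (3.38 against 1.97), and the pairs coincide for cell cycle genes. A list's paired medians need not cover the same genes, because genes at the floor on both arrays of a comparison were left out. Inflammatory cytokines had 18 genes for the circle and 15 for the square.

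Markers of other cells were checked in the same way. Neutrophil and granulocyte precursor genes were higher for 6 of 16 and lower for 3, with a median of 0.52. The granule genes Ltf, Ngp and Mpo were higher by 2.26, 1.67 and 1.26 on the log2 scale, and Mmp8, Lcn2 and Csf3r were lower by 3.68, 3.33 and 3.09. Their summed signal was 30800 untreated, 20470 with LPS and 20240 in PDL2-positive cells. Plasmacytoid DC markers were higher for 3 of 11 and lower for 5, with a median of -0.78 and sums of 3280, 11380 and 4798. Irf7 and Bst2, which are among these markers, are also in the list of interferon-stimulated genes. Irf7 read 8.06 untreated, 12.42 with LPS and 6.88 in PDL2-positive cells, and Bst2 read 10.02, 11.83 and 11.18. Mast cell, basophil and eosinophil markers had 10 of 16 below the floor on both compared arrays. Kit, the stem cell factor receptor, was 6.99-fold higher and Hdc lower by 4.77, the median was 0.29 and the sums were 925.7, 2484 and 1816. Lymphocyte and NK cell markers held 1 lower gene, Ighm, of 7 above the floor, with a median of -0.10 and sums of 7546, 4866 and 6042. Erythroid markers had 3 genes above the floor, of which Car2 was 2.15-fold higher and Tfrc lower by 1.06, with a median of -0.08 and sums of 2605, 2397 and 4308. The conventional DC markers given at the start had a median of 0.00, the difference of Cd74 near the top of the scale, and sums of 58790, 48300 and 61180. That median was not stable: it was 1.60 with the higher floor, 1.58 on the next brightest probe set, 0.68 without probe sets of identical values, and the mean was 0.73. The part of such cells in the results was not tested.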

How the data were processed

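Total RNA of 3 sorted mouse marrow DC populations was measured on 1 array each, per the labels. The deposited values are log2 signals per probe set, and the sources used here do not say how the authors normalized them. Of 38546 probe sets, 13 controls were left out, and 38533 were quantile normalized together in Python 3.11.15 with NumPy 2.4.6 and pandas 2.3.3. Of these, 33987 had 1 gene in the platform annotation, 449 had several and were not used, and 4110 were unnamed here. Symbols of 33800 were updated through RefSeq. Deposited values of 7011 probe sets (18.2%) were identical on all 3 arrays, and 914 compared genes had identical deposited values on both compared arrays. The cause is not stated, and such genes enter as differences near 0.

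A gene was read from its brightest probe set (highest mean over the arrays), with a floor at the median of all normalized values (5.58), and was called at a 2-fold difference. With 1 array per group no test was run, and precision is limited by the number of arrays. The calling step was tested on simulated arrays with differences of known size, added to genes well above the floor. That test does not cover signals near the floor, probe sets that disagree or the spread between cultures. Genes were named if they were among the 20 largest differences each way above the floor on both arrays, among the 10 largest lower bounds each way, or members of a gene list. The members and the 38 lists were chosen with earlier results of these data known. Promoter windows came from RefSeq (GRCm38.p6). Alternatives changed the normalization, floor, probe set rule, fold rule and list summary. Every value column was matched to a sample.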

Additional observations from a re-analysis of the deposited data

How the results depend on the processing

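No list median past 2-fold changed sign under any of 8 alternatives. Of 303 list values, 264 stayed within 0.44 on the log2 scale (the robust SD between probe sets) of the value reported, and 39 moved further, and 14 of 38 lists had no such move. The cause of the moves was not tested. With the deposited values 1919 genes were higher and 1326 lower, with median centring 1862 and 1355, against 1727 and 1391, and no list median moved by over 0.44. Of these calls 59.1% and 57.9% were higher against 55.4%. A floor at the 75th percentile left 1099 higher genes and gave medians of -4.09 for interferon-stimulated genes, -4.02 for GTPases, -2.63 for cytokines, -2.58 for chemokines, -0.035 for TNF receptors, -2.54 for uptake receptors, -3.38 for effector enzymes, -2.19 for complement, 0.33 for cell cycle, -3.24, -0.89 and -0.052 for macrophage, monocyte and plasmacytoid DC markers, and 1.60 for conventional DC markers. With no floor inflammatory chemokines had -4.03. The mean of all probe sets gave -4.17 for interferon-stimulated genes and -2.32 for complement. The next brightest probe set, which fewer genes have, left 794 higher and 631 lower genes and gave -3.79 for interferon-stimulated genes, -4.78 for GTPases, -0.33 for cytokines, 1.24 for mature DC chemokines, -1.64 for T cell ligands, -0.93 for Toll-like receptors, -3.12 for acute phase genes, -1.91 for complement, 0.32 for cell cycle, -1.57 for glycolysis, -3.35 for macrophage markers, -1.0 for erythroid markers and 1.58 for conventional DC markers. Without probe sets identical on all arrays the last was 0.68. A 1.5-fold rule gave 2767 higher genes, and a 3-fold rule 886 higher and 883 lower. The mean over members gave -3.64 for chemokines, -0.95 for type 2 genes, -0.68 for migration genes, -3.34 for effector enzymes, -2.77 for acute phase genes, 0.50 for BCL2 family genes, -1.60 for antioxidant genes, -0.0058 for neutrophil markers and 0.73 for conventional DC markers. No paired analysis was possible because each group has 1 array and no replicate number. Signals near the floor limit what can be read as absent.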
